A study of Mus musculus with 6 samples.

Results

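Mitochondrial fatty acid β-oxidation genes were examined in cultures of a mouse brown preadipocyte line labelled MICT1 KO and in their controls. The genes were taken by symbol from the deposited expression table and comprise the carnitine shuttle (Cpt1a, Slc25a20 and Cpt2), the acyl-CoA dehydrogenases (Acadvl, Acadl, Acadm and Acads), the trifunctional protein (Hadha and Hadhb) and the flavoprotein that passes the electrons on (Etfdh). All 10 were found among the 13283 genes listed, and all 10 were above the filter on low values (10 or more in at least 3 libraries), which left 12507 genes for testing. RNA-seq covered 3 control (Scr) and 3 MICT1 KO libraries of an immortalized mouse brown preadipocyte line (BAT cells) that stably expressed Cas9. Control cells, labelled WT, carried a scrambled sgRNA. MICT1 KO cells were knockout pools, which the paper calls independent and made with different sgRNAs. No label tells which pool each library came from. Both groups were differentiated in culture and received 10 µM forskolin, which raises cAMP, for 6 h on day 6 of differentiation. The methods place rosiglitazone, a ligand of PPARγ, together with insulin and T3 in the medium of both. The comparison asks how these genes differ between stimulated cultures labelled MICT1 KO and their controls.

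Brown adipocytes burn long-chain fatty acids in mitochondria to feed the respiratory chain during thermogenesis. Acyl-CoA cannot cross the inner membrane, so CPT1 on the outer membrane makes acylcarnitine, the carrier SLC25A20 brings it in, and CPT2 on the inner membrane restores acyl-CoA. Each turn of the spiral then oxidizes, hydrates, oxidizes again and cleaves the chain. A dehydrogenase matched to the chain length starts the turn, and its electrons travel by the electron transfer flavoprotein and ETFDH to ubiquinone.

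The deposited values are estimated reads for each gene after scaling by a library size factor, and sum to between 16104616 and 16616825 in a library. The targeted gene is not analysed here, and the genotype labels could not be checked on it. In control cultures some adipocyte markers had high means, such as Fabp4 (53340) and Lpl (55040), whereas Adipoq (624) and Cfd (707) were far lower. The fibroblast markers Vim (28540), Col1a1 (17960) and Col3a1 (16430) were high there too. The adipocyte markers differed strongly between the groups. Of 12 adipocyte markers 12 were lower in MICT1 KO cells (limma-trend, a linear model per gene whose variance is moderated over all genes, at an adjusted p under 0.05). The median of their log2 fold changes was -3.55, and their summed value lay between 131400 and 156800 in control and between 16280 and 22910 in MICT1 KO libraries. Over all genes tested 28.3% were lower and 28.5% higher. Of 9 tested preadipocyte and fibroblast markers 5 were higher (Pdgfrb, Ly6a, Col1a1, Dcn and S100a4) and 2 lower (Dlk1 and Pdgfra). Vim and Col3a1 did not pass. The sums were 63580 to 71210 in control and 85790 to 93650 in MICT1 KO libraries. From the control to the MICT1 KO mean, Dlk1 fell from 687 to 63.9. Col1a1 rose from 17960 to 30600 and Dcn from 365 to 9707. Of 6 tested brown adipocyte markers 3 were lower (Ucp1, Zic1 and Pdk4) and 1 higher (Ebf2, log2 fold change 1.24). Cox7a1 and Cpt1b did not pass. Ucp1, the uncoupling protein gene, was low in every library. Its values were 20.8, 24.1 and 30.5 in control and 1.91, 1.05 and 9.33 in MICT1 KO libraries. Macrophage markers summed to at most 384 in control and 639 in MICT1 KO libraries, where 1 of 4 tested, Cd14, was higher. Of the endothelial markers 1 of 2 was higher, at a summed value of at most 131, and of the muscle markers 1 of 4 was lower, at a summed value of at most 143. Calls of 1 among 4 are near the share over all genes, and 2 endothelial markers are too few to compare with it. Of the brown adipocyte markers Cidea, Elovl3, Dio2, Prdm16 and Cox8b were not analysed here and Ppargc1a was below the filter, as were Cd34 and Pi16 among the fibroblast markers. No marker is listed at 0, since the table holds only values above 0. The paper reports lower adipogenic genes, among them Pparγ, C/ebpβ and Fabp4, in its CRISPR knockout cells, but not after knockdown in differentiated cells. It calls an effect of the deletion on differentiation in culture plausible. How far the share of adipocytes in a culture moved the β-oxidation genes was not tested, and in bulk RNA fewer adipocytes and less RNA per adipocyte cannot be told apart.

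Most of the β-oxidation genes were lower in MICT1 KO cells, and the entry enzyme Cpt1a was higher. At an adjusted p under 0.05, 8 of the 10 genes fell, against 28.3% of all genes tested, and 1 rose, against 28.5% (limma-trend with Benjamini-Hochberg adjustment over all genes tested). Slc25a20 did not pass. The 3 MICT1 KO values lay below the 3 control values in 8 genes, against 31.2% of all genes, and above them in 1, against 30.9%. The median log2 fold change of the 10 genes was -0.42, against -0.005 over all genes tested. Only Acadm was at least 2-fold lower with an adjusted p under 0.05, which 5.76% of all genes were. Summed over the 10 genes, the values were 15900, 15220 and 16450 in control and 12840, 12210 and 13010 in MICT1 KO libraries, and these sums did not overlap. In the plot of the values by library, the separation of the groups is wide for Acadm, Cpt2, Acads and Cpt1a and narrow for Hadha and Acadvl.

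**Figure D1:**
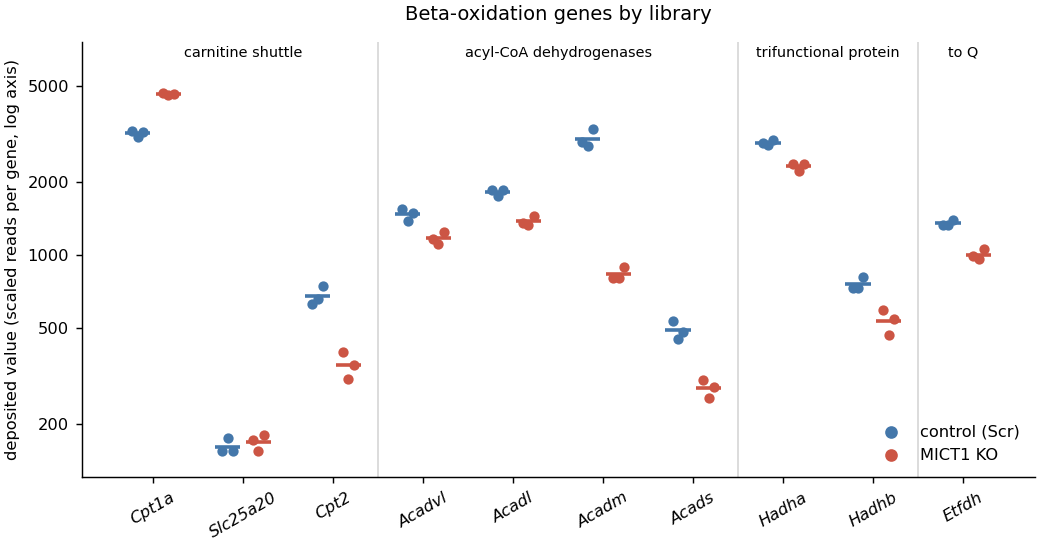
Deposited values (scaled reads per gene, log axis) of the 10 β-oxidation genes in the 3 control (Scr) and 3 MICT1 KO libraries, with a line at the mean of each group and "to Q" marking electron transfer to ubiquinone. Cpt1a is the gene whose MICT1 KO points lie above the control points, Slc25a20 has overlapping points, and the other genes have MICT1 KO points below control, with the widest gap for Acadm.

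At the entry, Cpt1a rose while Cpt2 fell. Cpt1a (chromosome 19, 3322326 to 3385735, GRCm38) encodes the liver-type carnitine palmitoyltransferase 1, the malonyl-CoA-sensitive step that admits long chains. Its values were 3266, 3061 and 3230 in control and 4693, 4598 and 4640 in MICT1 KO libraries. The MICT1 KO libraries were all high and close to each other. The log2 fold change of Cpt1a was 0.54 (95% interval 0.43 to 0.66, adjusted p = 2.35e-08 from limma-trend), 1.46-fold higher in the mean.

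Cpt2 (chromosome 4, 107903982 to 107923589), the inner-membrane partner, had values of 626, 658 and 743 in control and 397, 306 and 349 in MICT1 KO libraries. It fell by 0.95 on the log2 scale (95% interval -1.17 to -0.73, adjusted p = 2.02e-07 from limma-trend), to 0.519 of the control mean. Slc25a20 (chromosome 9, 108662136 to 108684642), the carnitine-acylcarnitine carrier, had the lowest values of the 10 genes, 154, 174 and 154 in control and 172, 155 and 179 in MICT1 KO libraries. The groups overlapped for this carrier. Its log2 fold change was 0.068 with a 95% interval from -0.25 to 0.39 (adjusted p = 0.727 from limma-trend), so a change of the size seen for Cpt1a or Cpt2 lies outside the interval.

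The ratio of Cpt1a to Cpt2 within a library was 5.22, 4.65 and 4.35 in control and 11.8, 15.1 and 13.3 in MICT1 KO libraries, 2.82-fold higher, a difference of 1.50 on the log2 scale between means with SDs of 0.133 and 0.173 (n = 3 each). The ratio of Slc25a20 to Cpt2 was 0.246, 0.265 and 0.207 in control and 0.433, 0.507 and 0.513 in MICT1 KO libraries, 2.03-fold higher. In both ratios the groups did not overlap, and how often ratios of other gene pairs separate was not examined. An exact two-sided permutation test over the libraries gave p = 0.1 for each of the 5 ratios examined, also after Benjamini-Hochberg adjustment over the 5, and this is the smallest p that 3 against 3 libraries can give.

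The promoter of Cpt1a is shown because it belongs to the member that rose, and that of Acadm because it belongs to the member that fell most. Both windows hold 1 match to AGGTCA, the hexamer that nuclear receptors such as PPAR, RXR and ERR recognise, printed in capitals as the reverse complement on the gene's strand. The sequences are RefSeq promoter windows (GRCm38.p6, 5′ to 3′ on the strand of the gene, 250 bases before the start site and 50 from it) at chr19:3323051-3323350 on the plus strand for Cpt1a and chr3:153944594-153944893 on the minus strand for Acadm. The start site of this table lies inside the span given above for Cpt1a, not at its first base. The hexamer lies from -94 to -89 in Cpt1a and from -249 to -244 in Acadm.

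Cpt1a promoter: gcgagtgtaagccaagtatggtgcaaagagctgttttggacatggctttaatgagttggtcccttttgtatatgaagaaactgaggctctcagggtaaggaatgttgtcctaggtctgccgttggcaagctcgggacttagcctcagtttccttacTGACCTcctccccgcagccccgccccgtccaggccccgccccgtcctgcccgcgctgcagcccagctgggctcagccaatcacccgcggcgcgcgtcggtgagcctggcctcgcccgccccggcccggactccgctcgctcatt

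Acadm promoter: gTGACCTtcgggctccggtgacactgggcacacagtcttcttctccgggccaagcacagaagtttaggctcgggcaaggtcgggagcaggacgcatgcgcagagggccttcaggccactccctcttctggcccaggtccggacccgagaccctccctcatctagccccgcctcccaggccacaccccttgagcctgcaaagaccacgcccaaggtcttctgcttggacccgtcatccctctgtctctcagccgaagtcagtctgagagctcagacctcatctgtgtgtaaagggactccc

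Promoter windows were found for all 10 genes. AGGTCA was present on either strand in 3 of them (Acadm, Acadvl and Cpt1a), against 16.3% of the 32851 windows in the table. The longer ERR motif TNAAGGTCA, which contains AGGTCA, was in 0 of the 10 windows and in 1.28% of all windows, and the cAMP response element TGACGTCA was in 0 and in 1.79%. A direct repeat of AGGTCA with 1 base between, the arrangement bound by PPAR with RXR, was in 0 windows and in 0.0396% of all. The windows of the members had 50.7% to 70.3% G and C, with a median of 59.7% against 52.7% over all windows. These matches describe the letters of a short window only.

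The 4 chain-length acyl-CoA dehydrogenases among the members fell, by very unequal amounts. Their relatives Acad9, Acad10 and Acad11 did not pass the test and are described with the other genes of the pathway. Acadm (chromosome 3, 153922353 to 153944643) encodes the medium-chain enzyme. Its values were 2928, 2831 and 3309 in control and 802, 802 and 888 in MICT1 KO libraries, 3.64-fold lower, and the highest MICT1 KO value was far below the lowest control value. The log2 fold change of -1.86 (95% interval -2.01 to -1.71, adjusted p = 5.80e-15 from limma-trend) placed Acadm at rank 252 from the bottom of the 12507 genes tested.

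Acads (chromosome 5, 115110299 to 115119346), the short-chain enzyme, had values of 533, 448 and 479 in control and 304, 256 and 285 in MICT1 KO libraries. It fell by 0.79 on the log2 scale (95% interval -1.02 to -0.55, adjusted p = 4.52e-06 from limma-trend). The groups did not overlap for Acads, and the fall was less than that of Acadm. Acadl (chromosome 1, 66830839 to 66863309), the long-chain enzyme, had values of 1863, 1759 and 1856 in control and 1360, 1327 and 1451 in MICT1 KO libraries. It fell by 0.41 on the log2 scale (95% interval -0.54 to -0.27, adjusted p = 1.66e-05 from limma-trend), and its groups did not overlap either.

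Acadvl (chromosome 11, 70010183 to 70015428) encodes the very-long-chain enzyme, which sits on the inner membrane. Its values were 1548, 1384 and 1489 in control and 1159, 1108 and 1243 in MICT1 KO libraries (log2 fold change -0.33, 95% interval -0.48 to -0.19, limma-trend adjusted p = 0.000420). The lowest control library, at 1384, was still above the highest MICT1 KO library. The exons of Acadvl share 1151 bases, 42.9% of their length, with those of Dvl2 on the opposite strand, and Dvl2 rose by a log2 fold change of 0.51 (adjusted p = 4.32e-06 from limma-trend). The libraries are described as strand-specific, and whether the counting used the strand is not given in the sources used here.

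The balance between chain lengths was read from ratios within each library. The ratio of Acadl to Acadm was 0.637, 0.622 and 0.561 in control and 1.70, 1.65 and 1.63 in MICT1 KO libraries, 2.74-fold higher. The ratio of Acadvl to Acads was 2.90, 3.09 and 3.11 in control and 3.81, 4.33 and 4.36 in MICT1 KO libraries, 1.37-fold higher. Neither ratio overlapped between the groups, and their permutation p is among the 5 given above. These ratios restate the unequal falls of their genes.

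Expressed per length of the transcript (RPKM, reads scaled by exon length in kilobases and by library size), Acadm made up 43.8% ± 1.90 (SD, n = 3) of the summed level of the 4 dehydrogenases in control and 22.3% ± 0.493 (SD, n = 3) in MICT1 KO libraries. The share of Acadl was 28.3% ± 0.754 (SD, n = 3) and 39.7% ± 0.278 (SD, n = 3), and that of Acadvl 20.2% ± 0.768 (SD, n = 3) and 29.7% ± 0.194 (SD, n = 3). Acads was the smallest part, at 7.73% ± 0.583 (SD, n = 3) and 8.30% ± 0.642 (SD, n = 3), with overlapping values. The summed level of the 4 was 211, 191 and 215 RPKM in control and 110, 106 and 118 RPKM in MICT1 KO libraries. With exon lengths over all annotated transcripts in place of the basic set, Acadm made up 31.6% and 14.5% and was second to Acadl in control cells. Its share was lower in MICT1 KO than in control cells with both lengths.

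**Figure D2:**
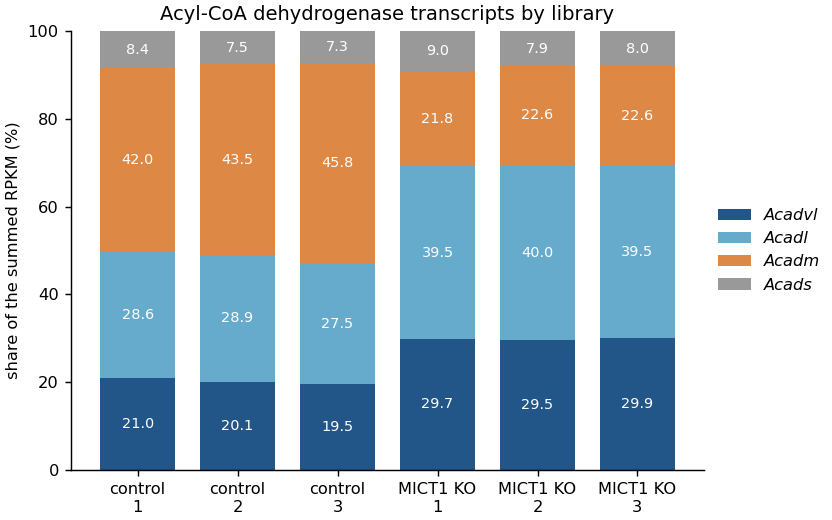
Share of each acyl-CoA dehydrogenase in the summed RPKM of the 4 (%, bars from 0 to 100) in each of the 3 control and 3 MICT1 KO libraries. Acadm takes 42.0% to 45.8% in control and 21.8% to 22.6% in MICT1 KO libraries, while the shares of Acadl and Acadvl are larger in every MICT1 KO library.

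The trifunctional protein carries out the remaining steps of the turn for long chains. Hadha (chromosome 5, 30119423 to 30154980) encodes the α-subunit with the hydratase and hydroxyacyl-CoA dehydrogenase activities, and Hadhb (chromosome 5, 30155253 to 30184593) the β-subunit with the thiolase. Hadha had values of 2915, 2847 and 2978 in control and 2375, 2231 and 2375 in MICT1 KO libraries, and fell by 0.33 on the log2 scale (95% interval -0.44 to -0.21, adjusted p = 5.66e-05 from limma-trend). Hadhb had values of 729, 729 and 812 in control and 590, 465 and 541 in MICT1 KO libraries, and fell by 0.51 on the log2 scale (95% interval -0.71 to -0.31, adjusted p = 0.000115 from limma-trend). For both subunits every MICT1 KO library was below every control library.

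The subunit genes lie head to head, with 272 bases between their RefSeq start sites, and their promoter windows share 228 bases. The window of Hadhb (GRCm38.p6, chr5:30155003-30155302, plus strand, 5′ to 3′) is shown because one stretch of sequence lies upstream of both genes. The part that also belongs to the window of Hadha, at chr5:30154931-30155230 on the minus strand, is in capitals.

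Hadhb promoter: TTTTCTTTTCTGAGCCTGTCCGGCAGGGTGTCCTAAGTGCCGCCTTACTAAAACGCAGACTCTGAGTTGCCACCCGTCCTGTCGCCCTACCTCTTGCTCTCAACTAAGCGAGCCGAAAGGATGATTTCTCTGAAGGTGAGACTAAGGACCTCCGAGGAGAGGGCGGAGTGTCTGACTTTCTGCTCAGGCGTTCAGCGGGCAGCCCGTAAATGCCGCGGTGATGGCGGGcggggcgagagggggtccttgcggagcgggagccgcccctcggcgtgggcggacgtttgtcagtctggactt

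The ratio of Hadha to Hadhb was 3.999, 3.91 and 3.67 in control and 4.02, 4.80 and 4.39 in MICT1 KO libraries, with the nearest libraries of the groups almost equal. Its difference was 0.19 on the log2 scale, and 0.12 without MICT1 KO replicate 2. By root-mean-square distance between centred log2 profiles over the 6 libraries, Hadhb stood at place 2014 among the other tested genes in closeness to Hadha (distance 0.125), behind Acadvl at place 133 (0.0483), Acadl at place 156 (0.0507) and Etfdh at place 274 (0.0606). The libraries form 2 groups, so this distance mixes unequal falls with the spread between replicates. It does not tell whether the subunit genes are regulated together. Per length, Hadha was at 44.3 ± 1.45 RPKM and Hadhb at 22.2 ± 1.43 RPKM in control libraries (SD, n = 3), and at 35.5 ± 1.21 and 15.7 ± 1.79 RPKM in MICT1 KO libraries (SD, n = 3). With exon lengths over all transcripts the levels were 20.4 and 7.01 RPKM in control and 16.3 and 4.94 RPKM in MICT1 KO libraries, so the distance between the subunits in level depended on the length used.

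**Figure D3:**
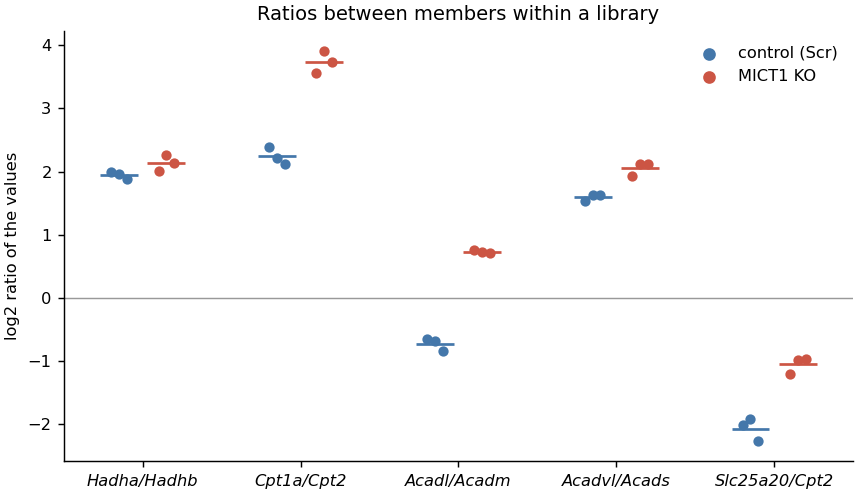
Log2 ratio of the values of 2 genes within each library, for 3 control (Scr) and 3 MICT1 KO libraries, with a line at the mean of each group and a grey line at equal values. The ratios Cpt1a/Cpt2, Acadl/Acadm and Slc25a20/Cpt2 lie 1.50, 1.46 and 1.02 higher in MICT1 KO libraries, whereas Acadvl/Acads lies 0.46 and Hadha/Hadhb 0.19 higher.

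Etfdh (chromosome 3, 79603788 to 79628767) encodes the inner-membrane enzyme that hands the electrons of all acyl-CoA dehydrogenases to ubiquinone. Its values were 1335, 1329 and 1395 in control and 992, 961 and 1054 in MICT1 KO libraries. They were tight within each group and did not overlap, with a log2 fold change of -0.43 (95% interval -0.58 to -0.29, adjusted p = 1.77e-05 from limma-trend). Exons of 4930579G24Rik on the opposite strand share 278 bases with Etfdh (3.70% of its exon length), and those of Garem2 share 75 bases with Hadha (0.859%). Both of these neighbours were higher in MICT1 KO libraries, with log2 fold changes of 0.80 and 2.03 (adjusted p = 2.32e-08 and 2.45e-06 from limma-trend).

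Ordered by level per length, the control libraries ran from Acadm (90.2 ± 7.81 RPKM, SD, n = 3) through Acadl (58.3 ± 2.67 RPKM, SD, n = 3), Cpt1a, Hadha, Acadvl, Etfdh, Hadhb, Cpt2 and Acads to Slc25a20 (5.51 ± 0.332 RPKM, SD, n = 3). Cpt1a, Hadha and Acadvl, at 45.1, 44.3 and 41.6 RPKM, overlapped in their values, and so did Cpt2 and Acads, at 17.4 and 15.9 RPKM. In MICT1 KO libraries Cpt1a came first (65.9 ± 0.404 RPKM, SD, n = 3) and Acadm at place 6 (24.9 ± 1.60 RPKM, SD, n = 3), with overlapping values for Etfdh and Acadm, for Acads and Cpt2, and for Hadha and Acadvl. The order depended on the exon length. With lengths over all transcripts the control order was Acadl, Acadm, Acadvl, Cpt1a, Hadha, Cpt2, Acads, Etfdh, Hadhb and Slc25a20, so that Cpt2 and Acads, at 17.3 and 13.1 RPKM, stood above Etfdh and Hadhb, at 11.0 and 7.01 RPKM. With those lengths the order in MICT1 KO libraries was Acadl, Cpt1a, Acadvl, Hadha, Acadm, Cpt2, Etfdh, Acads, Hadhb and Slc25a20. Slc25a20 was last in both groups under either length. Cpt1a accounted for 12.04% ± 0.306 (SD, n = 3) of the summed RPKM of the 10 genes in control and 24.6% ± 0.843 (SD, n = 3) in MICT1 KO libraries, and Acadm for 24.1% ± 1.10 and 9.26% ± 0.386 (SD, n = 3).

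Most of the genes that work around the members were lower too, several of them by more. Of 24 other mitochondrial β-oxidation genes tested, 16 were lower and 1 was higher in MICT1 KO cells (limma-trend, adjusted p under 0.05), and the median of the 24 log2 fold changes was -0.61. Crat, the carnitine acetyltransferase that trades acetyl groups with carnitine, had values of 2499, 2342 and 2694 in control and 604, 591 and 727 in MICT1 KO libraries (log2 fold change -1.97, limma-trend adjusted p = 1.71e-14). Acot2, a mitochondrial thioesterase that releases fatty acids from acyl-CoA, fell from 495 ± 61.5 to 143 ± 27.0 (SD, n = 3), with a limma-trend estimate of -1.79 on the log2 scale (adjusted p = 1.67e-09). Hadh, the hydroxyacyl-CoA dehydrogenase for medium and short chains, had values of 1689, 1571 and 1905 in control and 545, 508 and 543 in MICT1 KO libraries (log2 fold change -1.69, limma-trend adjusted p = 1.95e-13). For Crat, Acot2 and Hadh every MICT1 KO library was below every control library.

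Of the 4 other acyl-CoA dehydrogenases of the list, 3 did not pass the test. Acad9, which also serves complex I assembly, had values of 651, 633 and 749 in control and 617, 659 and 652 in MICT1 KO libraries, which overlapped (log2 fold change -0.073, limma-trend adjusted p = 0.496). Acad10 overlapped as well (-0.26, adjusted p = 0.260), with -0.48 (adjusted p = 0.0287) without control replicate 3. Acad11 was at 275, 278 and 274 in control and at 311, 308 and 346 in MICT1 KO libraries, so its groups did not overlap, with the MICT1 KO libraries above, but it did not pass (log2 fold change 0.22, limma-trend adjusted p = 0.113). Acad12 was lower at values of at most 31.6 (-1.21, adjusted p = 0.0295), and did not pass without control replicate 1, control replicate 3, MICT1 KO replicate 2 or MICT1 KO replicate 3 (-1.13, -1.11, -1.22 and -0.84).

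The 5 genes of the list for hydration, the next oxidation and thiolysis all fell (limma-trend, adjusted p under 0.05). Beside Hadh they are Echs1, the hydratase for short chains (log2 fold change -1.22), Hsd17b10, a hydroxyacyl-CoA dehydrogenase (-0.54), and the thiolases Acaa2 (-0.79) and Acat1 (-0.68). Etfa and Etfb, the subunits of the electron transfer flavoprotein, fell by 0.48 and 0.48 on the log2 scale (adjusted p = 4.85e-06 and 1.24e-05 from limma-trend), beside 0.43 for Etfdh. Slc25a29, a carrier related to Slc25a20, had overlapping groups and did not pass (0.36, adjusted p = 0.122 from limma-trend), but did without control replicate 3 (0.52, adjusted p = 0.0436). Of the rest of the list, Acot9 and Mlycd did not pass either, and Mlycd did without MICT1 KO replicate 3 (-0.51 against -0.33). Acot13 was lower (-0.36) but did not pass without control replicate 2 or without MICT1 KO replicate 2 (-0.34 and -0.23). Genes of the list beyond Crat, Acot2, Hadh and Cpt1c were named after their values were seen, and differences between them and the members were not tested.

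Cpt1c was the gene of the 24 that rose. It encodes a carnitine palmitoyltransferase 1 relative known mainly from neurons and the endoplasmic reticulum, and had values of 67.3, 105.7 and 83.4 in control and 362, 345 and 366 in MICT1 KO libraries (log2 fold change 2.08, limma-trend adjusted p = 1.10e-09). Cpt1b, the muscle-type isoform, also named after its values were seen, was low and variable, with values of 37.8, 20.5 and 0.597 in control and 0.200, 22.7 and 4.998 in MICT1 KO libraries, and did not pass (log2 fold change -0.99, limma-trend adjusted p = 0.438). Its estimate was -2.38 (adjusted p = 0.0315) without control replicate 3 and 0.12 without MICT1 KO replicate 1. Per length, Cpt1a made up 94.0% to 96.1% of the summed Cpt1 isoforms in control and 89.0% to 89.3% in MICT1 KO libraries, and Cpt1c 3.03% to 5.02% and 10.3% to 10.9%.

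**Figure D4:**
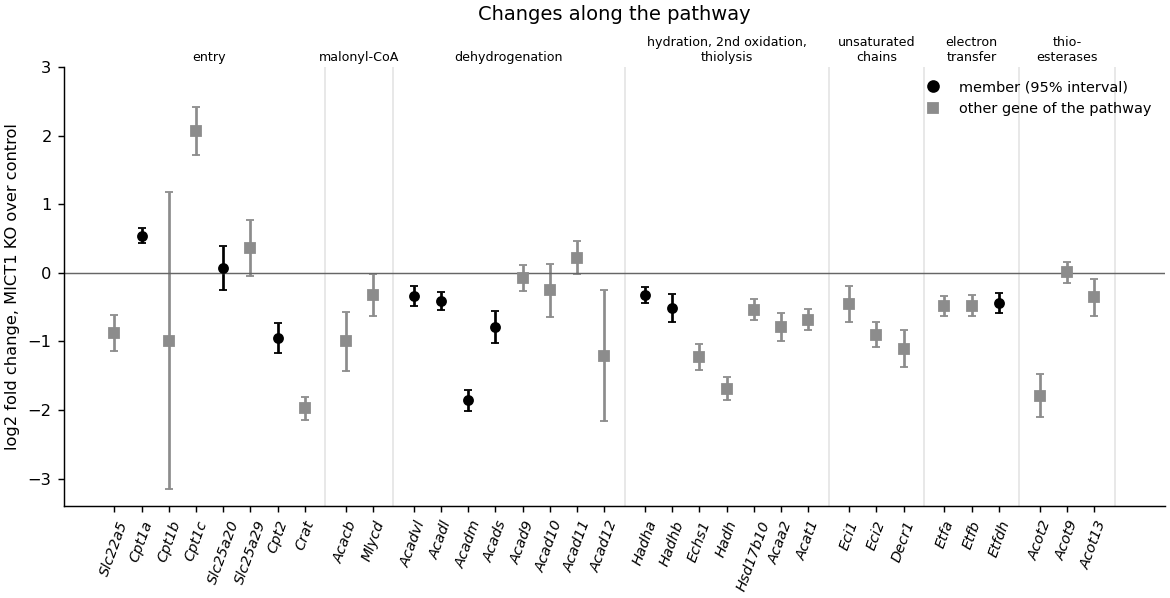
Log2 fold change of MICT1 KO over control with its 95% interval (limma-trend, 3 libraries per group) for the 10 members (black circles) and 24 other mitochondrial β-oxidation genes (grey squares), ordered along the pathway. Most points lie below 0, the lowest being Crat, Acadm, Acot2 and Hadh. Cpt1a and Cpt1c lie above 0 with their intervals, and the wide intervals of Cpt1b and Acad12 belong to genes with low values.

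Several regulators of these genes were lower as well. Of 13 tested regulators 9 were lower and 0 higher (limma-trend, adjusted p under 0.05), against 28.3% and 28.5% of all genes tested. The median of the 13 log2 fold changes was -0.41. Ppargc1b, which encodes the coactivator PGC-1β, was at 494, 422 and 419 in control and at 19.1, 30.6 and 22.8 in MICT1 KO libraries (log2 fold change -4.17, limma-trend adjusted p = 3.41e-13). Pparg, the adipocyte PPAR and also one of the adipocyte markers above, fell from 3742 ± 467 to 753.6 ± 66.7 (SD, n = 3), with a limma-trend estimate of -2.31 on the log2 scale (adjusted p = 1.69e-15). Nrip1, the corepressor RIP140, which restrains oxidative genes in fat, fell by 1.12 on the log2 scale (adjusted p = 5.39e-10 from limma-trend). The count thus joins activators and corepressors. Named after their values were seen, the corepressor Ncor1 had a log2 fold change of -0.41 and Ppard of -0.17 (limma-trend adjusted p = 9.51e-06 and 0.0295). Ppara, also named after its values were seen, was low, overlapped between the groups and did not pass (-0.60, limma-trend adjusted p = 0.195). Ppargc1a, which encodes Pgc1α, was below the filter and was not tested, and Esrrb, Esrrg and Hnf4a were not analysed here. Esrra, the ERRα gene, named here after its values were seen, had overlapping groups with values of 581, 579 and 558 in control and 598, 547 and 673 in MICT1 KO libraries (log2 fold change 0.076, limma-trend adjusted p = 0.503, and -0.002 without MICT1 KO replicate 3).

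Neighbouring pathways are set beside the members by their counts and medians, with 28.3% of all genes tested lower and 28.5% higher. In the citric acid cycle, which takes the acetyl-CoA, 18 of 18 genes were lower, with a median log2 fold change of -0.58, 0.16 below that of the members, and the largest falls were those of Idh3a (-1.08), Dld (-0.96) and Idh2 (-0.95). For peroxisomal β-oxidation the counts were 8 lower and 2 higher of 16 tested, with a median of -0.58. Acaa1b (-4.19), Acot4 (-3.09) and Scp2 (-2.22) fell most, while Acox3 (0.78) and Crot (0.76) rose, and Acaa1b may share reads with its close copy Acaa1a. Acox2 was not analysed here. Fatty acid uptake and activation had 9 lower and 2 higher of 12 and a median of -0.98, led by Cd36 (-4.22), Acsl1 (-3.76) and Fabp4 (-3.33), with Acsl5 (0.57) and Acsl3 (0.32) higher. Acsl6 was below the filter, and Slc27a2, Fabp3 and Gpihbp1 were not analysed here. De novo lipogenesis had 8 lower and 1 higher of 11 and a median of -1.07, led by Scd1 (-3.50), Scd2 (-2.34) and Slc25a1 (-1.51), with Fasn (0.30) higher, and without Mlxipl and Thrsp, which were not analysed here. All values in parentheses are log2 fold changes with an adjusted p under 0.05 from limma-trend, and no test compared the lists.

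**Figure D5:**
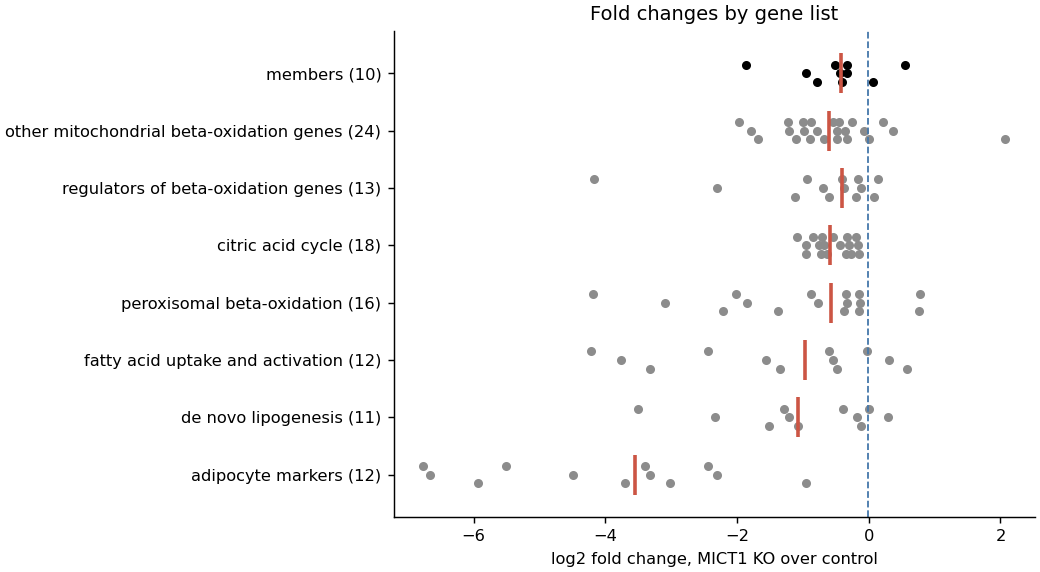
Log2 fold change of MICT1 KO over control for each tested gene of 8 gene lists, with the number of genes in parentheses, a red line at the median of the list and a dashed line at the median of all genes tested (-0.005). The medians are -0.42 for the members, -0.61 for the other mitochondrial β-oxidation genes, -0.41 for the regulators, -0.58 for the citric acid cycle and for peroxisomal β-oxidation, -0.98 for uptake, -1.07 for lipogenesis and -3.55 for the adipocyte markers.

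Outside the members, the genes closest to their mean centred profile over the 6 libraries were Ndufs1, a subunit of respiratory complex I (root-mean-square distance 0.0196 on the log2 scale), Eif2s2, a subunit of translation initiation factor eIF2 (0.0198), and Nek6, a mitotic kinase (0.0240). Ndufs1 had values of 2178, 2047 and 2189 in control and 1554, 1421 and 1528 in MICT1 KO libraries (log2 fold change -0.51). Eif2s2 and Nek6 both had a log2 fold change of -0.48. The 6 libraries form 2 groups, and a gene can resemble the members through the difference between the groups alone.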

How the data were processed

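RNA-seq libraries, 3 control (Scr) and 3 MICT1 KO, were grouped and numbered by their sample titles. According to the methods, strand-specific total RNA libraries were sequenced in pairs and aligned with Partek software to NCBI38/mm10, and the submitters' processing notes also name STAR and DESeq2. The authors deposited a normalized signal per gene. Since its median ratio to the geometric mean was equal (1.0048) in every library, and 88.8% to 90.5% of values under 20 were whole multiples (tolerance 0.01) of a step per library, the values were taken for estimated reads scaled by size factors of 0.949 to 1.078. Multiplied back, the values of the listed genes summed to an estimated 15440309 to 17917646 reads in a library. Reads outside the listed genes are not in these sums. Not being whole, the values got no count test, and limma-trend was used in its place. Genes reaching 10 in 3 or more libraries were compared as log2(value + 1) in R 4.3.3 with limma 3.58.1, and p was adjusted by Benjamini-Hochberg over the genes tested. Fold changes are on that scale, which understates those of low genes. Ratios were compared by an exact permutation test in scipy 1.17.1. RPKM used the basic transcript set of GENCODE vM21, found for 12932 genes (97.4%), and positions come from RefSeq (GRCm38). Functions were tested on simulated data. The members and lists were chosen with earlier results of these data known. Genes beyond the members were named as the 3 called genes with the largest change in each direction of a list, as the 3 closest profiles, or where the text says so. The methods call all replicates biological, all from one cell line, and p-values measure the spread between these libraries. The labels do not say whether they were separate cultures. Alternatives were other scalings (library total, quantile), limma-voom, no filter or one at 4 RPKM, pseudocounts of 0.5 and 5, the replicate block, each library left out and, chosen after seeing the data, another exon length.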

Additional observations from a re-analysis of the deposited data

How the results depend on the processing

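The 10 members kept their direction and their side of the threshold in all 140 values from 14 alternatives each. Of 728 values that could be computed for 53 other genes, 713 did so too, and the exceptions all came from leaving out 1 library. Acad12 (-0.84 to -1.22) and Acot13 (-0.34 and -0.23) no longer passed, whereas Acad10 (-0.48), Slc25a29 (0.52), Mlycd (-0.51) and Cpt1b (-2.38) then did. With 1 library left out, the sign turned within the range of Acot9 (-0.035 to 0.048), Acad9 (-0.12 to 0.001), Cpt1b (-2.38 to 0.12) and Esrra (-0.002 to 0.15), with no call on the side opposite to the full data. With each library left out, 9 members passed in every fit, the other β-oxidation genes that passed numbered 15 to 19, and genes that passed overall 6340 to 6596, against 7113 with all libraries. Acadm ranged from -1.91 to -1.79 and Cpt1a from 0.52 to 0.56. The difference between the medians of the members and the citric acid cycle genes ranged from 0.13 to 0.19. The filter at 4 RPKM lowered the overall count most, to 5750. The replicate numbers did not pair the libraries: deviations of same-numbered libraries correlated at -0.024, -0.015 and 0.064. With the replicate block 9 members and 7055 genes overall passed, the median of the members stayed at -0.42 and the ratio Cpt1a/Cpt2 stayed 1.50 higher on the log2 scale. The ratios kept their direction in every alternative, and none can pass a threshold of 0.05 with these numbers of libraries. Exon lengths over all transcripts, an alternative chosen after seeing the data, moved the share of Acadm among the dehydrogenases from 43.8% to 31.6% in control and from 22.3% to 14.5% in MICT1 KO libraries.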
